A study of Mus musculus with 68 samples.

Results

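The BCL2 family of apoptosis regulators was followed as 10 named genes in mouse embryonic fibroblasts (MEFs) exposed to ER stress. The members were taken by symbol, after matching the Ensembl identifiers of the tables to gene names, and are the anti-apoptotic genes Bcl2, Bcl2l1 and Mcl1, the effectors Bax, Bak1 and Bok, and the BH3-only genes Bid, Bcl2l11, Bbc3 and Pmaip1. All 10 were among the 13197 genes of the founder tables and the 12803 genes of the F1 tables, and all 10 passed the filter on low values. The study asked how much the transcriptional response to ER stress differs among genetically diverse mice.

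BAX and BAK1 form pores in the outer mitochondrial membrane that release cytochrome c and start apoptosis. The anti-apoptotic proteins BCL2, BCL-XL (from Bcl2l1) and MCL1 hold BAX and BAK1 in check, and the BH3-only proteins BIM (from Bcl2l11), PUMA (from Bbc3), NOXA (from Pmaip1) and BID engage the anti-apoptotic proteins or activate the effectors. Under unresolved ER stress several BH3-only genes are known targets of the transcription factors ATF4, CHOP and p53, and many family members are also controlled through protein stability and location, which RNA does not show.

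Founder MEFs came from the strains A/J (A), C57BL/6J (B6), 129S1Sv/ImJ (129), NOD/ShiLtJ (NOD), NZO/H1LtJ (NZO), CAST/EiJ (CAST), PWK/PhJ (PWK) and WSB/EiJ (WSB), and F1 MEFs from crosses of a B6 mother with a 129, CAST, NOD, NZO or WSB father (x129, xCAST, xNOD, xNZO and xWSB). Each genotype was treated for 4 h with DMSO as control or with 2 ug/ml of tunicamycin (TM), an inhibitor of N-linked glycosylation that loads the ER with misfolded protein. There were 40 founder and 28 F1 libraries, 2 or 3 for each genotype and treatment. The MEFs of a genotype were 1 pool of cells from several female embryos of the same litter, so replicates were cultures of 1 pool and the p-values measure the spread between these cultures. A difference between strains and a difference between their pools cannot be told apart.

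Values are read counts relative to the TMM-scaled size of the library and are given here as CPM. They were not divided by gene length. The founder and F1 tables were scaled apart, so levels were compared only within a set. Libraries held between 6442976 and 29528457 reads on genes, with medians of 14072068 in founder controls and 10730220 in founder TM libraries. Over the 66 libraries with recovered reads Bcl2l11 rested on 31 to 493 reads and Bcl2 on 37 to 319, the thinnest of the members, and Mcl1 on 1074 to 6196. Summed fibroblast markers had a median of 38300 in founder controls (21200 to 55900) and 27400 with TM (18200 to 49600). Of the 9 markers 4 were lowered and none raised in founders, and 3 were lowered and none raised in F1. Over all genes 21.9% were lowered in founders and 18.7% in F1. Thy1 was at 1.38 in the lowest founder library. The 7 listed myeloid markers together had a median of 25.8 in founder controls (7.94 to 64.0) and 13.4 with TM (5.93 to 44.8). Of these 4 were lowered and none raised in founders, and 1 of 4 was lowered in F1. Ptprc, Itgam and Tyrobp were at 0 in at least 1 founder library. Csf1r did not fall below 1.71 and Lyz2 ran from 0.192 to 43.1 in founders. The endothelial markers summed to medians of 3.71 and 5.25 and the epithelial markers to 23 and 12 in founder control and TM libraries. The part of these cells in the results was not tested. In bulk RNA fewer cells of a type and less RNA per cell cannot be told apart. A set of 9 libraries stood apart from the mean of their own group by a median of over 0.2 on the log2 scale, namely 129 TM 1 and 3, A control 1, A TM 1 and 2, NZO TM 3, xWSB control 1 and 3 and xWSB TM 1, and the main results that rest on them are also given without them.

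The stretches of DNA around the start sites of 4 members are shown. They include those of Mcl1 and Bbc3, raised by TM in both sets, and of Bak1, lowered in both. The stretch of Bcl2l11 is shown because its TM libraries lay above control in PWK and below in WSB. Each runs 5′ to 3′ on the strand of the gene from 250 bases before the start and holds 300 bases, from RefSeq on GRCm38.p6. Mcl1 is at chr3:95658471-95658770 on the plus strand, Bbc3 at chr7:16309333-16309632 on the plus strand (the first of 3 listed starts), Bak1 at chr17:27028578-27028877 on the minus strand and Bcl2l11 at chr2:128125788-128126087 on the plus strand (the first of 2). Capitals mark TGACG, the core of the cAMP response element, CCAAT, the box bound by NF-Y, or the reverse complement of either.
Mcl1: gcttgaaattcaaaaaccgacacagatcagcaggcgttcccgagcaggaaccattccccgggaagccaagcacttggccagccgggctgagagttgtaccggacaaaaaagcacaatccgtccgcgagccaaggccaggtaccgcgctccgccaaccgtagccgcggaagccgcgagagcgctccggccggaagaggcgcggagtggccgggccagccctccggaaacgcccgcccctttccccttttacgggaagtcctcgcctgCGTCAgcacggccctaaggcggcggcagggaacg
Bbc3: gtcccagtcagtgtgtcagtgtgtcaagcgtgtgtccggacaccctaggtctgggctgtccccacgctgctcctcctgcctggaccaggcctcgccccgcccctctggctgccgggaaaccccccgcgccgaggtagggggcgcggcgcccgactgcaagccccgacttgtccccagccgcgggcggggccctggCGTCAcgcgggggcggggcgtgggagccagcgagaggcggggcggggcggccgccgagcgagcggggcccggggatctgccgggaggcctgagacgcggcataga
Bak1: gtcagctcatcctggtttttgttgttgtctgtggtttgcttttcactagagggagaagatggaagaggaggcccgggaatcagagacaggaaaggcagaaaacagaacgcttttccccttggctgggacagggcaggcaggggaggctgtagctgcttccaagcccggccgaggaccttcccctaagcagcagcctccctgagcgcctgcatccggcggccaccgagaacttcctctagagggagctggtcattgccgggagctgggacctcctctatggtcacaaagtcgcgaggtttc
Bcl2l11: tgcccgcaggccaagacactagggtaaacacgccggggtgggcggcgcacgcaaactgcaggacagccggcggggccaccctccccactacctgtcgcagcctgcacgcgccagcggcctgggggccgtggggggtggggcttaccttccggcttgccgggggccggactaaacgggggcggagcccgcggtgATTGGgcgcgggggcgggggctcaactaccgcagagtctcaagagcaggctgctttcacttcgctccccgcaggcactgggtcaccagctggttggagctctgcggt

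The source used held 14 such stretches for 9 of the members and none for Pmaip1, which TM also raised in both sets. TGACG, read on both strands, was in the stretches of Mcl1, Bbc3 and Bcl2 and in 20.8% of all 32851 stretches. CCAAT, read on both strands, was in those of Bcl2l11 (both starts) and Bbc3 (start 3 of 3) and in 37.4% of all. TGATGNAA, the core of the element bound by C/EBP-ATF dimers, was in none of the 14 and in 3.97% of all, and the ER stress response element, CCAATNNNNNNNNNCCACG, was in none of the 14 and in 0.119% of all. The CCAAT box is part of that longer element. A match is only a run of letters in this window.

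Across the 8 founder strains, TM raised Pmaip1, Bbc3, Mcl1 and Bid and lowered Bak1 and Bok. Among the 10 members, 3 of the 4 BH3-only and 1 of the 3 anti-apoptotic genes thus rose and 2 of the 3 effectors fell. The remaining 4 members, Bcl2, Bcl2l1, Bax and Bcl2l11, did not pass the test (limma, Benjamini-Hochberg adjusted p below 0.01). Of 9 other tested genes in or named after the family, 2 rose and 4 fell in founders. Those that fell include the BH3-only genes Bad (-0.33) and Bmf (-1.07) and the anti-apoptotic gene Bcl2l2 (-0.19). In the 5 F1 crosses Pmaip1, Bbc3 and Mcl1 rose and Bak1 fell. Only Pmaip1 had a mean change past 1.5 fold, in both sets. A correction of each library for GC content and gene length was added after seeing the data. With it Pmaip1 fell under that size, and its founder change of 0.16 was no longer called (limma adjusted p = 0.0276). Bbc3 in founders reached a log2 change of 0.69 with the correction. The 4 raised of 10 stand against 20.5% of all genes raised in the founder fit and the 2 lowered against 21.9%, and in F1 the 3 raised stand against 16.9% and the 1 lowered against 18.7%. The lowered counts are near the background. The median change of the 10 members was 0.12 on the log2 scale in both sets, and that of all genes tested was -0.04 in both.

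**Figure D1:**
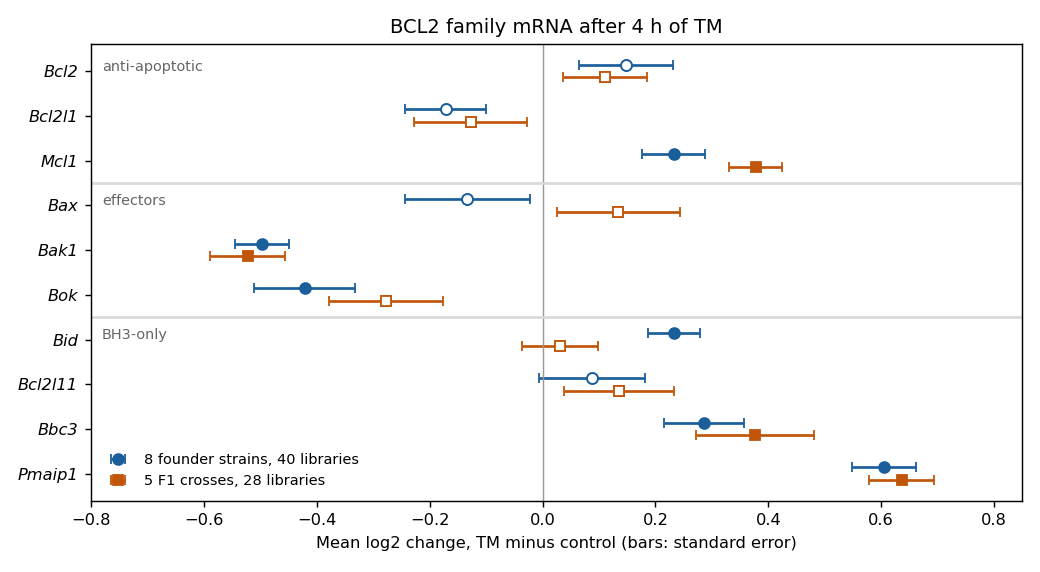
Mean log2 change (TM minus control) of each member over the 8 founder strains (circles, 40 libraries) and the 5 F1 crosses (squares, 28 libraries), with standard errors. Filled symbols passed an adjusted p below 0.01, and Pmaip1 lies farthest right (0.60 and 0.64) and Bak1 farthest left (-0.50 and -0.52) in both sets.

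Pmaip1, which encodes the MCL1 antagonist NOXA, had the largest mean rise of the members without the correction for GC content and length, and a smaller one than Bbc3 and Mcl1 with it. Its TM libraries lay above all control libraries in all 13 genotypes. In B6 the 2 control libraries held 50.1 and 44.6 CPM and the 2 TM libraries 68.9 and 71.5. In NZO the controls held 53.0 and 58.5 and the TM libraries 87.6, 97.8 and 104.4. In 129, the genotype with the second smallest change, controls at 24.9 and 26.0 and TM libraries at 32.5, 28.9 and 33.5 still did not overlap. The mean log2 change was 0.60 over the founders (SE 0.056, limma adjusted p = 3.03e-10) and 0.64 over the crosses (SE 0.058, adjusted p = 5.28e-09), or 1.52 and 1.55 fold. Pmaip1 has a GC content of 41.6%, the lowest of the members, and the change was smaller relative to genes of like GC content and length: after the correction it was 0.16 in founders (adjusted p = 0.0276) and 0.24 in F1 (adjusted p = 0.0044), with adjusted p over the alternatives between 7.46e-13 and 0.0276 in founders and between 4.4e-09 and 0.0044 in F1.

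Bbc3, the gene of PUMA, which binds all the anti-apoptotic proteins, rose by a mean log2 change of 0.29 in founders (SE 0.071, limma adjusted p = 0.00109) and 0.38 in F1 (SE 0.105, adjusted p = 0.00492). In xNZO the controls held 13.4, 12.6 and 8.40 CPM and the TM libraries 16.6, 16.7 and 19.7. In CAST the order was the other way, with controls at 13.5 and 13.2 and TM libraries at 11.8 and 12.1. The groups were apart with TM higher in A, B6, PWK, WSB, xNOD and xNZO and overlapped in the 6 other genotypes besides CAST. Bbc3 has the highest GC content of the members, 67.1%, and its change was 0.69 in founders (adjusted p = 4.67e-12) and 0.56 in F1 (adjusted p = 8.46e-07) after the correction for GC content and length. The founder call was lost with the strain as the unit of replication (adjusted p = 0.0107), within a range of 4.67e-12 to 0.0252 over all alternatives. The F1 call was lost with the cross as the unit (adjusted p = 0.0171) and without xCAST control 3 (0.34, adjusted p = 0.0169) or xNOD TM 2 (0.36, adjusted p = 0.0119), within a range of 8.46e-07 to 0.0171 over all alternatives.

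Bid, whose protein is activated by cleavage and links death receptors to mitochondria, rose in founders by a mean log2 change of 0.23 (SE 0.046, limma adjusted p = 9.59e-05). In NOD the 2 controls held 25.2 and 26.0 CPM and the 3 TM libraries 37.2, 37.6 and 36.5. The F1 mean was 0.03 (SE 0.068, limma adjusted p = 0.721) and the groups overlapped in all 5 crosses. Whether the sets differed was not tested. Bcl2l11, the gene of BIM, had a mean near 0 in both sets (0.09 in founders, adjusted p = 0.444, and 0.14 in F1, adjusted p = 0.26, by limma), with differences of opposite sign in single strains.

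Among the effectors, Bak1 fell in both sets. Its mean log2 change was negative in all 13 genotypes, from -0.69 in NZO to -0.33 in xNZO, and its TM libraries lay below all controls in 11 of them, overlapping in A and xNZO. In PWK the controls held 153.8, 136.4 and 131.8 CPM and the TM libraries 89.0, 91.3 and 96.8. In x129 the controls held 108.4, 109.5 and 107.3 and the TM libraries 69.9, 80.8 and 72.8. The founder mean of -0.50 (SE 0.048, limma adjusted p = 6.44e-10) and the F1 mean of -0.52 (SE 0.066, adjusted p = 8.40e-07) left 0.709 and 0.696 of the control level. After the GC content and length correction the changes were -0.36 and -0.42.

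Bok, a BAX-like effector that acts partly at the ER, fell by a mean log2 change of -0.42 in founders (SE 0.089, limma adjusted p = 0.000208). In CAST the controls held 83.7 and 68.9 CPM and the TM libraries 45.1 and 42.4. In 129 the TM libraries spread from 51.5 to 111.1 around controls of 87.7 and 88.5, and the highest and lowest were 2 of the libraries that stand apart. The F1 mean was -0.28 (SE 0.101, adjusted p = 0.0262), which passed without xWSB control 3 (-0.34, adjusted p = 0.00221) or xCAST TM 3 (-0.32, adjusted p = 0.00943), over a range of 0.00221 to 0.0643. Bok is short (1840 bases of exon) and GC-rich (61.8%), and the correction for both brought its founder change to -0.15 (adjusted p = 0.00612, range over alternatives 5.36e-09 to 0.0184).

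Bax did not pass in either set, with a mean log2 change of -0.13 in founders (SE 0.111, limma adjusted p = 0.318) and 0.13 in F1 (SE 0.109, adjusted p = 0.321). It is the shortest member (1576 bases of exon), and its founder value turned to 0.07 with the GC content and length correction (adjusted p = 0.368) while the F1 value rose to 0.25 (adjusted p = 0.00376, over a range of 0.00376 to 0.538). Its spread followed single libraries: A control 1, which stands apart, held 485.3 CPM against 213.0 and 223.6 in the other A controls.

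Of the anti-apoptotic genes, Mcl1, which encodes the short-lived protein that NOXA binds, rose in both sets. Its TM libraries lay above all controls in 5 founder strains and in all 5 crosses. In WSB the controls held 201.1 and 197.6 CPM and the TM libraries 296.7, 256.2 and 244.9. In A the controls at 325.5, 197.8 and 188.4 overlapped the TM libraries at 241.8, 262.9 and 258.6 because of A control 1 alone. The mean log2 change was 0.23 in founders (SE 0.055, limma adjusted p = 0.000809) and 0.38 in F1 (SE 0.047, adjusted p = 7.37e-07), and the correction for GC content and length left it at 0.22 and 0.36.

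Bcl2 and Bcl2l1 did not pass. Bcl2 had mean log2 changes of 0.15 in founders (SE 0.083, limma adjusted p = 0.133) and 0.11 in F1 (SE 0.074, adjusted p = 0.222), with x129 the clearest case, at 5.55, 6.21 and 4.88 CPM in controls and 7.60, 7.66 and 7.01 with TM. Bcl2l1 had mean log2 changes of -0.17 (SE 0.071, adjusted p = 0.043) and -0.13 (SE 0.100, adjusted p = 0.302). Its TM libraries lay below the controls in 129, B6 and NOD and overlapped them in the other 10 genotypes.

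**Figure D2:**
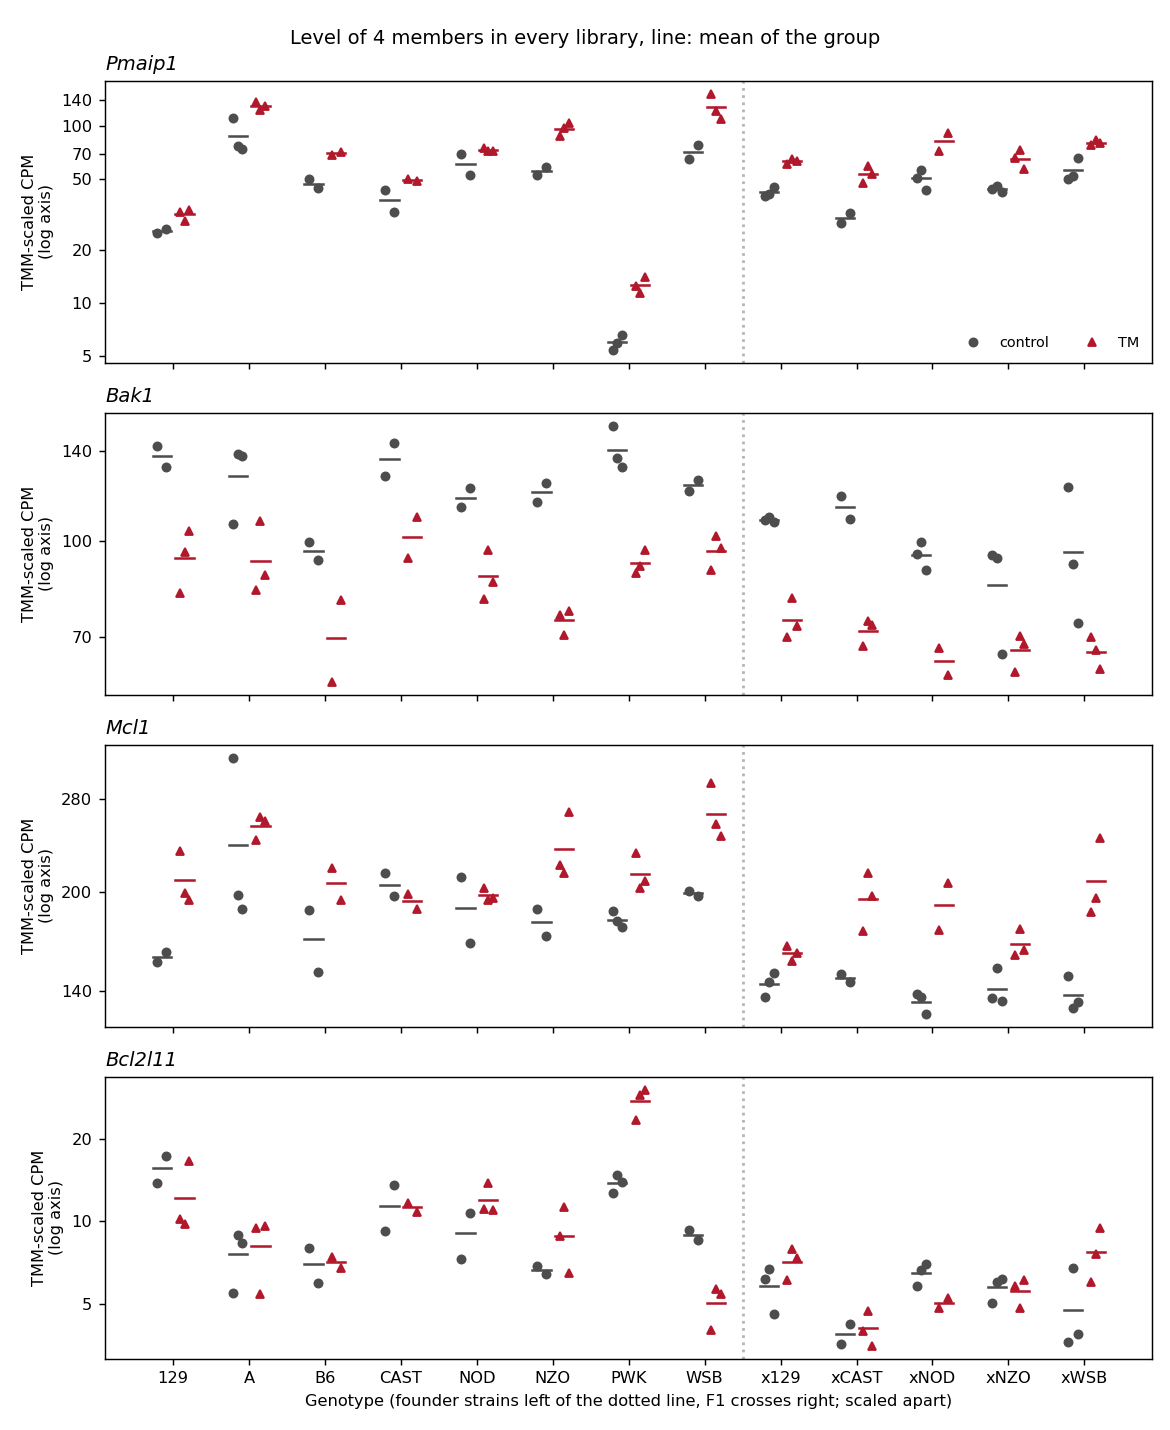
Level of Pmaip1, Bak1, Mcl1 and Bcl2l11 in each of the 68 libraries, in CPM on a log axis, with control as circles, TM as triangles and a line at the mean of each group. TM lies above control in all 13 genotypes for Pmaip1, PWK is the lowest strain for Pmaip1, and the TM libraries of Bcl2l11 lie above control in PWK and below in WSB.

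Within single genotypes, at the study's threshold of 1.5 fold with an adjusted p below 0.01, 5 of the 130 comparisons of a member in a genotype were called, 3 raised and 2 lowered. All genes over the 13 genotypes gave 2.45% raised and 1.52% lowered, so the members were called about as often as other genes. Of the 5 calls 3 were in PWK, the genotype with the largest share of all genes raised (6.36%) and with 4.3% lowered. There Pmaip1 rose 2.09 fold (limma adjusted p = 9.3e-05), Bcl2l11 rose 1.98 fold (adjusted p = 6.02e-05) and Bak1 fell to 0.658 of control (adjusted p = 0.000262). In xCAST Pmaip1 rose 1.76 fold (adjusted p = 0.00898), from 28.5 and 32.1 to 47.7, 59.4 and 53.5 CPM, and in CAST Bok fell to 0.576 of control (adjusted p = 0.00735). Leaving out xCAST control 2 or 3 or TM 1 or 2 ended the Pmaip1 call in xCAST, leaving out CAST TM 2 or 3 ended the Bok call, and leaving out PWK control 1 or TM 1 took Bak1 under the fold threshold. The correction for GC content and length brought the log2 changes of Bok in CAST to -0.41, of Bak1 in PWK to -0.46 and of Pmaip1 in xCAST to 0.36, none of which passed both thresholds. The count was 8 without NZO TM 3, which added Pmaip1, Bak1 and Bok in NZO, and 8 without xNOD TM 1.

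Without regard to size, the TM libraries lay wholly above the controls in 40 of the 130 comparisons (30.8%) and wholly below in 25 (19.2%). Over all genes and genotypes these shares were 21.3% and 22.4%, and the share below was near that of other genes. Pmaip1 with 13, Mcl1 with 10, Bbc3 with 6 and Bid with 5 made up most of the first, and Bak1 with 11 and Bok with 5 most of the second.

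**Figure D3:**
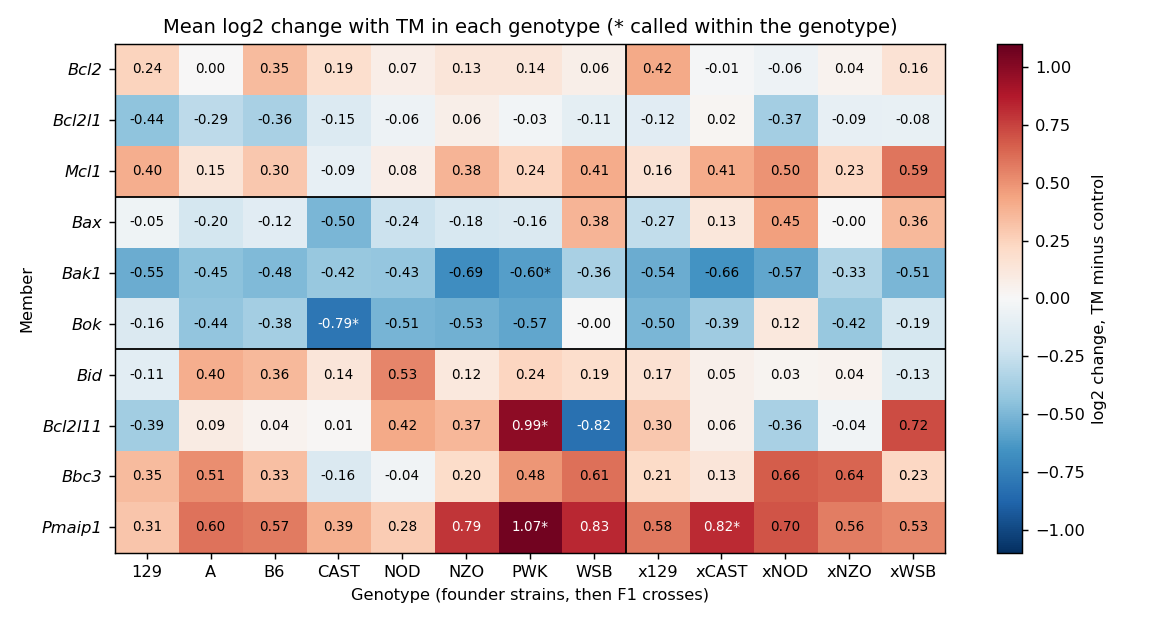
Mean log2 change (TM minus control) of each member in each of the 13 genotypes, with anti-apoptotic genes on top, effectors in the middle and BH3-only genes below, and an asterisk where the call passed within the genotype. The Pmaip1 row is positive and the Bak1 row negative throughout, and the Bcl2l11 row runs from -0.82 in WSB to 0.99 in PWK.

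To ask whether the response differed among strains, the interaction of strain and TM was tested over the 8 founders. None of the 10 members was called (limma), against 0.174% of all genes. At an unadjusted p below 0.05 there were 3 members, against 3.91% of all genes, and edgeR on recovered reads also called 0. The cross by TM interaction in F1 called 0 members, against 0.0547% of all genes, with 2 members at an unadjusted p below 0.05, against 6.15% of all genes. Bcl2l11 was at rank 81 of the 13197 genes, with an adjusted p of 0.238 from limma.

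The Bcl2l11 values behind that rank were as follows. In PWK the controls held 12.7, 14.7 and 13.9 CPM and the TM libraries 23.5, 28.9 and 30.1. In WSB the controls held 9.31 and 8.53 and the TM libraries 4.02, 5.68 and 5.43. The groups were apart in both strains and the differences had opposite signs, 0.99 on the log2 scale in PWK (SE 0.123) and -0.82 in WSB (SE 0.246, limma adjusted p = 0.0426). None of these libraries is among the 9 that stand apart. Set against the mean of the 7 other strains, the PWK response was 1.03 higher (SE 0.258, adjusted p = 0.121) and the WSB response 1.04 lower, at -1.04 (SE 0.283, adjusted p = 0.137). Over all 80 such contrasts of a member in a strain 0 were called by limma, against 0.017% over all genes, and 7 had an unadjusted p below 0.05, against 3.92% over all genes.

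The call of that interaction depended on how the spread was taken. The study set each TM library against the median control of its strain. A moderated F test on that change called Bcl2l11 and Pmaip1 (adjusted p = 0.00245 and 0.00149), but it leaves out the spread of the controls. The 9 libraries that stand apart were chosen for their distance from their own group, so leaving them out lowers the spread by construction. It also left 129 and A with 1 TM library each, so no adjusted p of that fit is given for the interaction. Over the alternatives the adjusted p of Bcl2l11 ran from 0.00245 to 1 and that of Pmaip1 from 0.00149 to 1.

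The F1 crosses were set against the mean response of their parents for each member. In xWSB, Bcl2l11 stood at 3.63, 6.74 and 3.89 CPM in controls and at 6.04, 7.64 and 9.45 with TM, which overlapped. The log2 difference was 0.72 (SE 0.298), against -0.82 in the WSB parent and 0.04 in B6 (SE 0.179). The difference from mid-parent was 1.11 (SE 0.294, limma adjusted p = 0.191), and 2 of the 3 xWSB controls and 1 of the 3 TM libraries stand apart. It was 0.72 without the libraries that stand apart, which left xWSB with 1 control. With library quality weights it was 0.53 (limma adjusted p = 0.00312), but the fit of the weights stopped before it converged. Over the alternatives the adjusted p ran from 0.00312 to 0.982. None of the 50 comparisons of a member in a cross was called by limma, against 0.0111% over all genes, and 3 had an unadjusted p below 0.05, about the share over all genes (6.01%). There was no PWK cross to compare.

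Before stress the strains differed in 6 of the 10 members, against 35.8% of all genes (limma, moderated F over the 18 founder controls, adjusted p below 0.01). Pmaip1 differed most (adjusted p = 3.85e-09), followed by Bid (1.90e-05), Bcl2 (0.000125), Bcl2l1 (0.0021), Bcl2l11 (0.00327) and Bok (0.00471). Mcl1, Bax, Bak1 and Bbc3 did not pass, with adjusted p from 0.0384 to 0.522. Bak1 passed without A control 1 (0.00163, range over alternatives 2.64e-05 to 0.207). Bcl2l1 was lost without CAST control 3 (0.0119), Bok without PWK control 2 or 3 (0.0185 and 0.023) and Bcl2l11 without 129 control 3 or PWK control 2 (0.0135 and 0.0106). Over the alternatives the adjusted p ran from 3.54e-07 to 0.0119 for Bcl2l1, 3.88e-08 to 0.023 for Bok and 9.58e-07 to 0.0135 for Bcl2l11.

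Pmaip1 stood at 5.41, 5.89 and 6.59 CPM in PWK controls and at 24.9 to 111.4 in the controls of all other strains, with no overlap. PWK was 8.51 fold below the mean of the other 7 strains (limma adjusted p = 2.97e-10). A was 2.45 fold above the mean of the others (adjusted p = 5.3e-06), with controls at 111.4, 77.2 and 74.4, and 2.16 fold above without A control 1, and WSB 1.97 fold above (adjusted p = 0.000418). The 2.09 fold rise in PWK took Pmaip1 to between 11.4 and 14 in its TM libraries, still below the lowest control of any other strain.

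Of the 80 contrasts of 1 strain against the other 7 in controls, 15 were called, against 10.3% of all genes. Bcl2 was 1.86 fold higher in B6 (12.98 and 14.79 CPM, adjusted p = 0.000625 from limma) and 1.70 fold lower in A (4.76, 4.65 and 5.67, adjusted p = 0.00029). Bid was 1.65 fold lower in NZO (19.2 and 20.5, adjusted p = 0.000303) and higher in A (1.46 fold) and PWK (1.34 fold). Bcl2l1 was lower in CAST (1.51 fold) and PWK (1.34 fold). Bok was 1.61 fold lower in PWK (57.4, 51.1 and 44.9, adjusted p = 0.00142) and 1.58 fold higher in A, where A control 1 at 167.0 lay far above 93.9 and 97.9. Without A control 1 the Bok contrast was 1.31 fold and did not pass (adjusted p = 0.013, range over alternatives 0.000106 to 0.013). Bcl2l11 was 1.52 fold higher in PWK (adjusted p = 0.00973, and 0.0133 with no trend in the prior variance, the highest over its alternatives). PWK therefore differed from the others in 5 members before stress, with Pmaip1, Bok and Bcl2l1 lower and Bid and Bcl2l11 higher, against 22.1% of all genes called for PWK.

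Divided by exon length, the members' levels spanned a wide range in the 18 founder controls. Bax had a median of 138 CPM per kb (113 to 308). Mcl1 (median 55.0, 43.8 to 95.2), Bak1 (52.6, 38.8 to 63.9) and Bok (42.2, 24.4 to 90.8) came next with overlapping ranges. Pmaip1 had a median of 18.8 (1.98 to 40.8), Bid 10.0, Bcl2l1 8.56 and Bbc3 6.41, again overlapping. Bcl2l11 (1.13, 0.682 to 2.16) and Bcl2 (0.809, 0.508 to 1.61) were the lowest and overlapped each other. The same 4 genes led in F1 controls, where Mcl1, Bak1 and Bok had medians of 40.3, 40.5 and 40.6.

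Taken as 1 number per genotype, the mean log2 change of the 7 pro-apoptotic members minus that of the 3 anti-apoptotic members was close to 0. It averaged -0.05 over the founders (range over strains -0.18 to 0.12) and -0.05 over the crosses (-0.16 to 0.12), against a spread between TM libraries of the same genotype of 0.18 (SD) in each set. It was positive in 2 of 8 strains and 2 of 5 crosses. Of the founders PWK had the tightest values, 0.07 to 0.11 over its 3 TM libraries, and 129 and A the widest, -0.46 to 0.11 and -0.11 to 0.51. The ends in 129 and A are libraries that stand apart, and A TM 3, which does not, was at -0.04. The founder mean was -0.08 and the F1 mean -0.07 without those libraries, and the founder mean was 0.02 with the GC content and length correction. These values carry no test.

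The pro-apoptotic class held opposite movements. The 4 listed BH3-only genes minus the 3 listed anti-apoptotic genes averaged 0.23 over the founders and 0.17 over the crosses. With the correction for GC content and length these means were 0.22 and 0.09. The value was positive in every genotype but 129, where it was -0.03 with an SD of 0.16 over 3 libraries. With the correction for GC content and length it was also negative in WSB (-0.06), and without the libraries that stand apart in xWSB (-0.04). Among founders it was highest in PWK (0.58, SD 0.03, n = 3) and next in A (0.45, SD 0.22, n = 3), NOD (0.27, SD 0.07, n = 3) and B6 (0.23, SD 0.01, n = 2). The 3 effectors minus the anti-apoptotic genes had negative means in all 13 genotypes, from -0.65 in NZO (SD 0.38, n = 3) to -0.02 in xNOD (SD 0.39, n = 2). The mean over genotypes was -0.42 in founders and -0.34 in F1, and -0.23 and -0.27 with the correction for GC content and length. The difference between the change of Pmaip1 and that of Mcl1, the pair whose proteins bind each other, was 0.83 in PWK (SD 0.17, n = 3) and lay between -0.09 and 0.48 elsewhere. With the correction for GC content and length it was 0.44 in PWK (SD 0.28), and its mean over genotypes turned from 0.37 to -0.06 in founders and from 0.26 to -0.13 in F1.

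**Figure D4:**
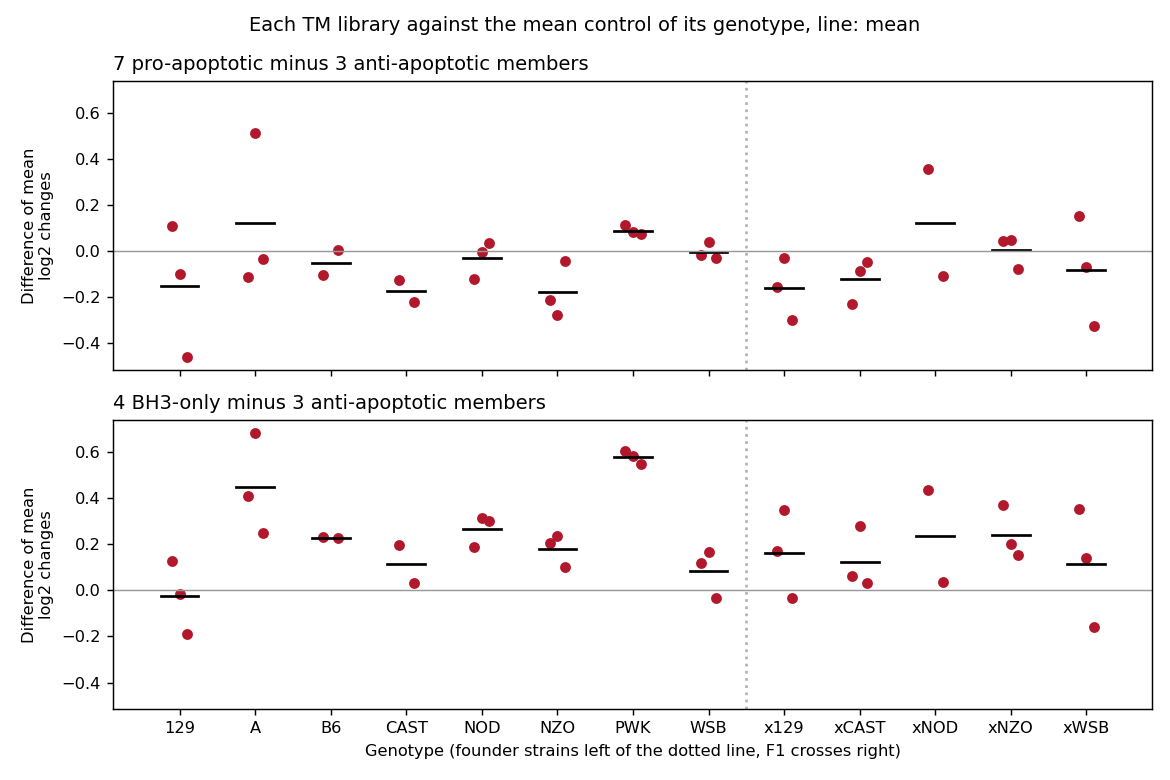
Difference of mean log2 changes for each TM library against the mean control of its genotype, for the 7 pro-apoptotic minus the 3 anti-apoptotic members (top) and the 4 BH3-only minus the 3 anti-apoptotic members (bottom), with a line at the mean. The top values straddle 0, and in the lower panel all 3 PWK libraries lie between 0.546 and 0.605.

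The regulators and partners of the family were counted from lists of known genes. Over all genes 20.5% rose and 21.9% fell in founders, and 16.9% rose and 18.7% fell in F1. These shares stand beside the counts of every list below, and no list was tested against them. Of 12 tested regulators of BH3-only transcription, 6 rose and 2 fell in founders and 6 rose in F1. Ddit3, which encodes CHOP, had a log2 change of 3.90 (SE 0.091, limma adjusted p = 1.51e-24), Atf3 3.28, Trib3 2.75 and Atf4 1.21, against a largest mean change of 0.60 among the members. Of the list, Trib3, a pseudokinase gene induced by ATF4 and CHOP, also differed in response among strains (interaction adjusted p = 0.000115). The median log2 change of the list was 0.255 in founders and 0.445 in F1, and that of all genes was -0.037 and -0.04.

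A list of 9 tested genes held inhibitors of apoptosis and their antagonists, with Endog and Aifm1, which are neither. Of these 9, 3 rose and 3 fell in founders and 2 rose and 1 fell in F1 (medians 0.101 and 0.118). Birc3 (1.32 in founders, 0.87 in F1, both called by limma) and Birc2 (0.90 in both), which encode the ubiquitin ligases cIAP2 and cIAP1, rose, Birc6 fell (-0.58 and -0.74), and the mitochondrial nuclease gene Endog fell in founders (-0.61, adjusted p = 0.000248 from limma) and was at 0.06 in F1. The Birc3 response differed among strains (interaction adjusted p = 0.0046, limma). Of 12 genes of the apoptosome and caspases 2 rose and 4 fell in founders and 2 rose and 5 fell in F1 (medians -0.15 and -0.077). Casp9 (-0.56) and Apaf1 (-0.50), the core of the apoptosome, and Dffa (-0.42), the inhibitor of the apoptotic nuclease, fell, and Casp12, an ER-associated caspase, rose (0.51) from a founder control mean of 3.03 CPM.

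Of 9 other tested genes that belong to the family or are named after it, 2 rose and 4 fell in founders. Of 8 tested in F1 there were 1 raised and 1 lowered (medians -0.105 in founders and -0.096 in F1). Bclaf1 (0.43), which encodes a BCL2-associated transcription factor and not a family member, and the mitophagy receptor Bnip3l (0.23) rose in founders. Bclaf1 was also the gene raised in F1 (0.29). The BH3-only genes Bad (-0.33) and Bmf (-1.07, on a mean of 0.770 CPM in controls) fell in founders. Of 14 partners of BCL2 proteins at the ER and mitochondria 3 rose and 4 fell in founders and 2 rose and 4 fell in F1 (medians 0.043 and -0.008). Itpr3, an ER calcium channel, fell (-0.66) and Tmx1 (0.39), Vdac3 (0.33) and Dnm1l (0.26) rose. Of 8 genes of MCL1 turnover, Ppp2ca rose (0.18) and Btrc fell (-0.19) in founders, and the 6 others did not pass (median 0.02). In F1 1 of 7 fell and none rose (median -0.089).

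Genes whose mean log2 change over the 13 genotypes was most like that of a member were listed for the 3 members with the largest founder change, as a description over 13 genotypes that share library and depth effects. For Pmaip1 they were Junb (Pearson r = 0.882), Snx9 (0.882) and Ifrd1 (0.853), of 11663 genes compared. For Bak1 they were Prrc1 (0.837), Hyal2 (0.808) and Tmem129 (0.803). For Bok they were Snrnp40 (0.975), Lamtor4 (0.971) and Ssna1 (0.971). Of these only Junb (0.30 to 1.24), Ifrd1 (0.86 to 1.71) and Hyal2 (-1.28 to -0.67) had changes of 1 sign in all 13 genotypes.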

How the data were processed

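RNA-seq tables of 68 MEF libraries were analysed. The authors made single-end libraries, aligned reads to strain-specific genomes (TopHat 1.4.1, per the submitters' processing notes) and scaled counts by TMM. They dropped libraries that did not cluster with their treatment by principal components and scaled what was left once more. The deposited signal per gene is named FPKM, but in 66 libraries the values were whole multiples of 1 step per library (100% within a tolerance of 0.05), so it was taken as TMM-scaled reads not divided by length. Strand use and the treatment of shared reads are not given in the sources used here, so overlapping genes cannot be told apart.

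The members and gene lists were chosen with earlier results of these data known. Tests were designed for FPKM and kept, as the scale is the same for every gene: limma 3.58.1 (eBayes with trend, R 4.3.3) on log2(value + 0.1), over genes at 0.5 or more in at least 2 libraries, with Benjamini-Hochberg adjustment over all genes. Contrasts were the mean TM effect over strains or crosses, the interaction, the strain difference in controls, F1 against mid-parent (called at adjusted p below 0.01) and TM within a genotype (also 1.5 fold). This pseudocount shrinks the folds of low genes. Named from each list were up to 4 called genes with the largest founder change, and, for the 3 members with the largest founder change, the 3 genes with the highest Pearson correlation of changes over genotypes. Bcl2l2 and Aifm1 were named besides these.

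In the other 2, PWK TM 2 and WSB TM 1, the step was too near 0.1 to be told from rounding, and they were left out of edgeR. Chosen after seeing the data were edgeR 4.0.16 (quasi-likelihood, 5232 of 13197 genes called in founders and 4610 of 12803 in F1), a correction of each library for GC content and length, and leaving out 9 libraries. Scripts were tested on simulated data. Genes were matched to GENCODE M21, and 98.6% had GC content and length. F1 lines not assigned to a gene (15.5% to 24.2% of the total) were left out. Figures used Python 3.11.15 and matplotlib 3.10.9.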

Additional observations from a re-analysis of the deposited data

Results flagged for a closer look

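In 3 members the TM libraries lay wholly above the controls in some founder strains and wholly below in others. Over all genes and the 13 genotypes, 21.3% of comparisons lay wholly above and 22.4% wholly below. The share of all genes with both among the founder strains was not computed. For Bcl2l11 they lay above in NOD and PWK and below in WSB, and the test of the difference among strains gave a limma adjusted p of 0.238. For Bax they lay above in WSB and below in B6, CAST and NOD, with an adjusted p of 1. For Bbc3 they lay above in A, B6, PWK and WSB and below in CAST, with an adjusted p of 1. Groups held 2 or 3 libraries, too few to look for single outliers of a gene within a group. The 9 libraries that stand apart were set by a median deviation over genes, and whether they are faulty was not tested.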

How the results depend on the processing

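A pseudocount of 1, a mean value of at least 2 and median-of-ratios scaling left every count of members within 1.5 times the reported one. The 5 calls within genotypes became 3 with no filter, 3 with no trend in the prior variance, 11 with 1 fit over all libraries of a set, 12 at an adjusted p below 0.05 and 13 without the libraries that stand apart (which left 129 and A with 1 TM library and xWSB with 1 control, each assumed to vary like the other arm), and ranged from 4 to 8 with 1 library left out. With the replicate number as a block, the founder count fell from 6 to 2 (Bak1 and Pmaip1, with Mcl1, Bid, Bok and Bbc3 no longer called), the F1 count was 3, the interaction and mid-parent counts were 0 and the count within genotypes was 4. Over the 29 pairs with the same number the correlation of deviations ran from -0.64 to 0.49 (median 0.03, over 0.1 in 11), so the numbers were not taken to pair libraries. The correction for GC content and length ended the founder call of Pmaip1 (limma adjusted p = 0.0276). At 1.5 fold, without that correction, the founder and F1 counts were 1 and 1. The interaction count was 1 with library quality weights and 2 by a moderated F test on log2(TM/median control), which leaves out the spread of the controls. The mid-parent count was 4 with the weights, all in xWSB, with no share over all genes at hand. The fit of the weights stopped before it converged. With 1 library left out, the founder, F1 and control counts ranged from 6 to 6, 3 to 5 and 4 to 7, the interaction and mid-parent counts from 0 to 0, and the mean pro- minus anti-apoptotic change from -0.07 to -0.03 in founders and -0.09 to 0 in F1. With the BH3-only genes alone that change was 0.23 and 0.17. The 15 called contrasts of 1 strain against the others in controls were 12 to 16 under 4 alternatives, 21 without the libraries that stand apart and 26 with library quality weights. The causes of these changes were not tested. Values of Bcl2 and Bcl2l11 rest on few reads, where counting error is large.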
